A study of Mus musculus with 8 samples.

Results

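The undeaminated background was described in mouse embryonic stem cells that lacked TET enzyme activity and had received no doxycycline. The libraries were those titled Ctr 0h, replicates A, B and C, which are 3 of the 8 libraries of the series and hold 346907 of its 1849087 CpG calls. The cells were an embryonic stem cell line in which TET1, TET2 and TET3 were inactivated, carrying a PiggyBac vector for a doxycycline-inducible catalytic domain of mouse TET3 that is linked to an mCherry reporter. All groups shared this genotype and grew in medium with 50 µg/ml ascorbate. The untreated group (0 h, n = 3) received no doxycycline, and 1 µM doxycycline was given for 6 h (n = 2) or 12 h (n = 3). The labels do not say that replicates were separate cultures, so p-values measure the spread between these libraries, which may be technical. Calls on DNA show no expression of marker genes, so the cell type could not be checked here. They do not check the deletions either: the untreated libraries held 2 undeaminated of 17 calls in the Tet1 body, 0 of 2 in Tet2 and 1 of 57 in Tet3, the gene whose catalytic domain the vector also carries.

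TET enzymes oxidise 5-methylcytosine to 5-hydroxymethylcytosine (5hmC), and this is the step that makes 5hmC in mammalian DNA. In APOBEC-coupled sequencing, 5hmC is protected by a glucose while an APOBEC deaminase converts cytosine and 5-methylcytosine, so an undeaminated CpG is read as 5hmC. The deaminase acts on single-stranded DNA. The frequency of undeaminated calls in cells without TET activity is the background against which induced cells are read. Calls of incomplete deamination cannot be told apart here from 5hmC made by any expression of the inducible domain without doxycycline.

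The promoter stretches that follow are shown because 1 untreated read in each carried 5 or more undeaminated CpGs inside the window. They are RefSeq sequences of GRCm38.p6, 250 bases before to 50 after the gene start, written 5′ to 3′ on the strand of the gene, and capitals mark the CpGs called undeaminated. In all 4 the called cytosine lies on the other strand, so a CpG followed by C as printed is a CpG preceded by G on the strand that was called.
Hspd1 (chr1:55088194-55088493, minus strand): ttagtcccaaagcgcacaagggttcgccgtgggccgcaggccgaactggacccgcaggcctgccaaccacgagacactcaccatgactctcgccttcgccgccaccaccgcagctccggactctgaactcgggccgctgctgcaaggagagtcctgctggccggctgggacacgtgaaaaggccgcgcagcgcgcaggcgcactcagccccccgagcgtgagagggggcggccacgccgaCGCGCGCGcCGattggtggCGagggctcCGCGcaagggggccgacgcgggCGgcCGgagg
Cux2 (chr5:122049802-122050101, minus strand): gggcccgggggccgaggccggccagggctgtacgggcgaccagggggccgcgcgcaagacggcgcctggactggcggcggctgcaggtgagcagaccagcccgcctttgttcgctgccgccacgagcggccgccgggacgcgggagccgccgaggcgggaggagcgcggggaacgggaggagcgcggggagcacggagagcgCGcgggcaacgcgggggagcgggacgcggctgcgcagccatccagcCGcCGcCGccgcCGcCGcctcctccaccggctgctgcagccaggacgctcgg
Gtpbp2 (chr17:46160782-46161081, plus strand): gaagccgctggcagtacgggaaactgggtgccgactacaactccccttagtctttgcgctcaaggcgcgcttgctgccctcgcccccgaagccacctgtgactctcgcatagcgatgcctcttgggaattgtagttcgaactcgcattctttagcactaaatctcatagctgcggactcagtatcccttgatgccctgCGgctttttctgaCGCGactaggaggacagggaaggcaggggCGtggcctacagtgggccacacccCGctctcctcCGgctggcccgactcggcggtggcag
Aff2 (chrX:69360081-69360380, plus strand): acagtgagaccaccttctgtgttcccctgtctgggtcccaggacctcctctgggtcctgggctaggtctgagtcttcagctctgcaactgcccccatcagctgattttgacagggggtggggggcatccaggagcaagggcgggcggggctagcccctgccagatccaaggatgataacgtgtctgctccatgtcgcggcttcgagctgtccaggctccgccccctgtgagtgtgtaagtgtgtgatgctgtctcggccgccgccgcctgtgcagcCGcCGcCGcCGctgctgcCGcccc
Hspd1, which encodes the mitochondrial chaperonin HSP60, had 10 undeaminated of 18 calls in this window, all on 1 read of 0 h A. Cux2, a homeobox gene, had 6 of 28 calls, also on 1 read of 0 h A. Gtpbp2, a GTP-binding protein gene, had 6 of 10 calls on 1 read of 0 h C. Aff2, the gene of the FRAXE fragile site in humans, had 5 of 6 calls on 1 read of 0 h A. In Cux2 and Aff2 most capitals fall in runs of GCC repeats. The Aff2 window had 0 undeaminated of 14 calls on 1 read of 0 h C, and the Gtpbp2 window had 0 of 7 calls in 6 h B and 0 of 8 in 12 h A. The other libraries had no calls in the same windows.

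The level is the percentage of CpG calls that were undeaminated. It was 0.899% in 0 h A (1418 of 157700 calls, 95% Wilson interval 0.854 to 0.947%). In 0 h B it was 1.23% (1071 of 87030 calls, interval 1.16 to 1.31%). In 0 h C it was 1.26% (1283 of 102177 calls, interval 1.19 to 1.33%). Library A, the deepest, lay below the other two, and its interval did not overlap theirs. The mean was 1.13% ± 0.199 (SD, n = 3), against 6.42% ± 0.212 at 6 h (n = 2) and 24.1% ± 2.36 at 12 h (n = 3). Intervals and floors cover counting error only. Calls of 1 read share a molecule, and errors clustered by read were 1.41 to 1.46 times the binomial errors.

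Each library was spread over 3 sequencing runs. The 0 h A level was 1.34% (11180 calls), 0.938% and 0.792% in the 3 runs, so the low level of this library was not seen in its smallest run. In 0 h B the runs gave 1.31%, 1.28% and 1.17%, and in 0 h C 1.26%, 1.18% and 1.34%. The strand was inferred from the order of a read's calls, which leaves out the 45.8 to 47.1% of reads with 1 CpG. Among the others the strands had close levels in 0 h A, B and C. These were 0.895%, 1.20% and 1.27% on the top strand and 0.923%, 1.20% and 1.22% on the bottom strand.

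**Figure D1:**
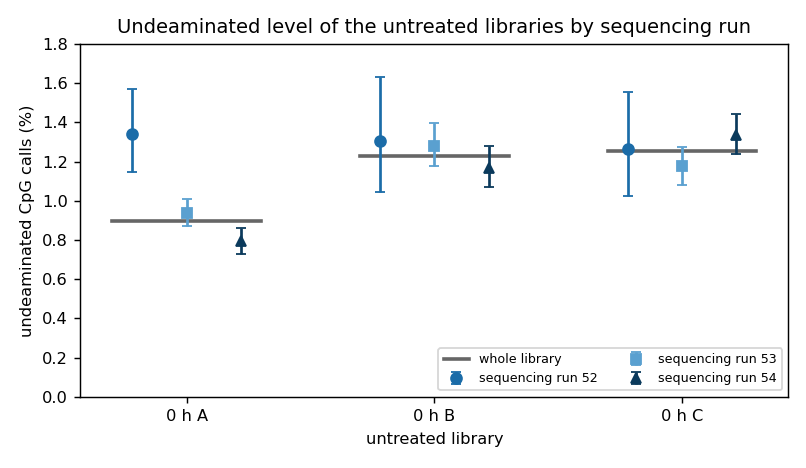
Undeaminated CpG calls (%) of each untreated library in each sequencing run, with 95% Wilson intervals, and the whole-library level as a line. The 0 h A runs span 0.792 to 1.34%, and the 0 h C runs 1.18 to 1.34%.

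The background was not spread evenly over reads. Of 156149 untreated reads, 553 carried 2 or more undeaminated calls. There were 184 such reads in 0 h A, 181 in 0 h B and 188 in 0 h C. Calls falling independently, at the rate seen in reads of the same class of CpG number, would give 30.3, 17.4 and 22.7. All 3 libraries therefore exceeded this expectation, by 6.07, 10.4 and 8.29 times. The same ratio was 1.97 and 2.19 at 6 h and 1.20, 1.17 and 1.12 at 12 h, and the groups did not overlap. The ratio is bounded by the level of a library: with every undeaminated call paired on a read it could reach at most 3.06, 2.98 and 2.76 in 12 h A, B and C and 7.28 and 7.67 in 6 h A and B. At 12 h these bounds lie below the lowest untreated ratio, so the lack of overlap there follows from the levels. Two-sided exact permutation tests gave p = 0.1 (12 h) and p = 0.2 (6 h), which are the smallest these designs allow, and 0.218 for both after adjustment over 12 such tests.

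These reads held 37.2% of the undeaminated calls in 0 h A, 46.6% in 0 h B and 40.4% in 0 h C (mean 41.4% ± 4.76, SD, n = 3). Independence would give 4.39%, 3.28% and 3.59%. The share was 33.3% ± 0.814 at 6 h (n = 2) and 49.0% ± 1.47 at 12 h (n = 3), where independence would give 13.8% and 38.0%. Reads with a single undeaminated call alone amounted to a level of 0.564%, 0.657% and 0.749% in 0 h A, B and C. The most undeaminated calls on 1 read were 17 in 0 h A, 13 in 0 h B and 11 in 0 h C.

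Fully undeaminated reads, on which every one of 3 or more CpGs was undeaminated, numbered 23 of 19624 in 0 h A, 32 of 10633 in 0 h B and 28 of 12665 in 0 h C. These are 0.117%, 0.301% and 0.221% of reads, with a mean of 0.213% ± 0.0921 (SD, n = 3). Independent calls would give 0.00484, 0.00623 and 0.0107 reads. Of the 83 reads, 42 had 3 CpGs, 25 had 4 and 16 had 5 or more, and the longest had 7. They held 6.06%, 11.8% and 8.34% of the undeaminated calls of 0 h A, B and C. Observed exceeded expected reads 4747, 5140 and 2614 times in 0 h A, B and C, against 22.8 and 27.0 times at 6 h and 3.65, 3.82 and 3.34 times at 12 h. The levels again bound these ratios, to 50.7 to 71.1 at 12 h and to 914 and 994 at 6 h, all below the untreated ones, so the groups could not overlap and the exact permutation p of 0.1 and 0.2 (0.218 adjusted) adds nothing to the difference in level. With reads of 2 or more CpGs counted, 0.324% were fully undeaminated, since 46, 59 and 61 reads with 2 CpGs were undeaminated at both.

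**Figure D2:**
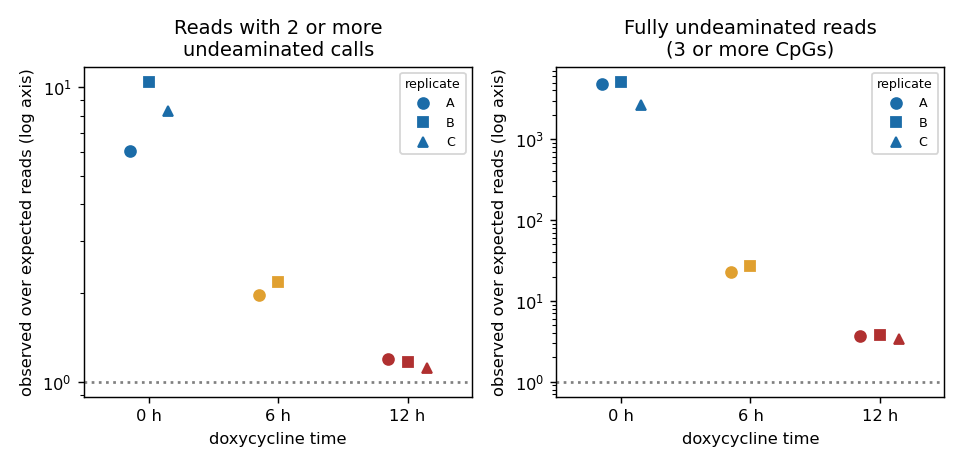
Observed over expected number of reads (log axis) with 2 or more undeaminated calls (left) and of fully undeaminated reads (right), 1 point per library, with 1 drawn as a dotted line. Untreated libraries lie at 6.07 to 10.4 on the left and 2614 to 5140 on the right, above induced libraries, whose ratios their higher levels bound.

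An untreated undeaminated call was followed by another at the next CpG of its read in 848 of 1960 pairs (43.3%; libraries 37.2 to 54.8%). After a deaminated call the next was undeaminated in 0.702% of pairs. The first share was 58.8% for CpGs 1 to 2 bases apart, 51.6% at 3 to 5 bases, 48.7% at 6 to 10 bases and 43.7% at 11 to 20 bases. It was 35.6% at 21 to 40 bases, 36.2% at 41 to 80 bases and 33.8% at 81 bases or more, so it was lower beyond 20 bases than up to 10 bases, with little change beyond, and lay above the library level in each bin. At 12 h, where the level is much higher, the share was 42.0% over all pairs. At 6 h it was 25.7%, below each of the 3 untreated libraries.

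**Figure D3:**
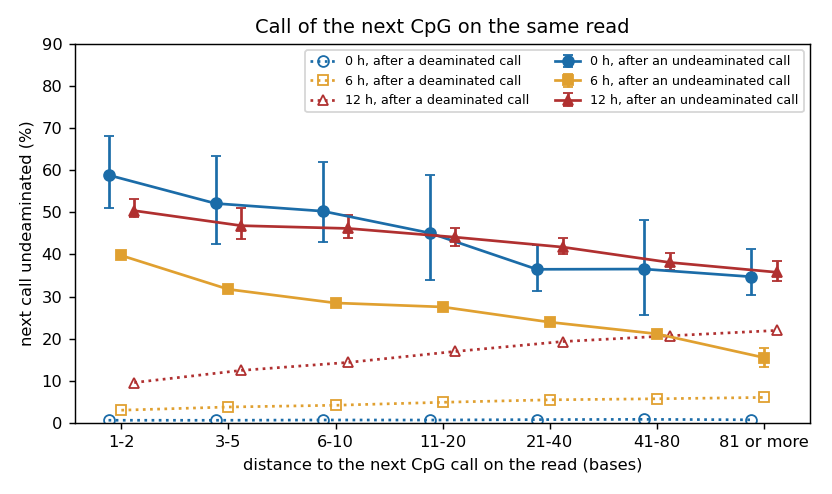
Percentage of next CpG calls on the same read that were undeaminated, by distance in bases, after an undeaminated call (filled, group mean with lowest and highest library) and after a deaminated call (open, group mean). The untreated mean falls to 34.7% at 81 bases or more, against 58.9% at 1 to 2 bases, while after a deaminated call it stays at or below 0.817%.

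Undeaminated calls also lay next to each other. Of the 234 untreated reads with 4 or more CpGs and 2 or more undeaminated calls that were not fully undeaminated, 121 had them as 1 unbroken run, where any order of the same calls would give 63.9. The counts were 38 of 96 reads in 0 h A, 44 of 66 in 0 h B and 39 of 72 in 0 h C, each above its expectation of 24.0, 19.5 and 20.3.

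The first-listed and last-listed calls of a read differed in level, in opposite directions in untreated and 12 h libraries. On reads with 3 or more CpGs the last-listed call, which is the one nearest the 5′ end of the strand that bears the cytosine, was undeaminated in 1.16%, 1.50% and 1.37% of reads of 0 h A, B and C. The first-listed call, nearest the 3′ end, was undeaminated in 0.703%, 1.10% and 1.07%. Last minus first came to +0.389 ± 0.0741 points in untreated cells (SD, n = 3). It was 0 and -0.474 points at 6 h and -1.01 ± 0.160 points at 12 h (n = 3). Calls between the first and the last averaged 1.12% in untreated cells, between the means of 0.956% (first) and 1.35% (last). At 12 h they averaged 21.5%, below both the first (25.3%) and the last (24.3%), so the 12 h level did not fall steadily along the read. At 6 h they averaged 5.85%, also below the first (6.95%) and the last (6.71%). Reads with more CpGs give more such calls. As a ratio of last to first the groups did not overlap, and the untreated value was 1.48-fold that at 12 h (exact permutation p = 0.1, 0.218 adjusted).

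Untreated reads were also grouped by their number of CpG calls, which follows local CpG density. A read carried 2.25, 2.19 and 2.21 CpG calls in 0 h A, B and C, and 45.8 to 47.1% of reads had 1. By limma, on the level of a class minus that of its library, 0 of 7 classes were called at an adjusted p of 0.05 (0.0% of those tested; 1 at an unadjusted p of 0.05, and 0 by quasi-binomial test, also unadjusted). Class means ran from 1.02% ± 0.204 for reads with 3 CpGs to 1.26% ± 0.163 for reads with 8 to 10. The densest reads, with 11 or more, had 1.52%, 0.992% and 1.19% in 0 h A, B and C, so that A was high and the others were below their libraries. Over the library level these are 1.69, 0.806 and 0.946, against 0.340 and 0.320 at 6 h and 0.224, 0.240 and 0.289 at 12 h. The untreated ratio was 4.36-fold that at 12 h, with no overlap (exact permutation p = 0.1, 0.218 adjusted). On these dense reads 260 of 337 undeaminated calls shared their read with another, a mean share of 77.3% over the untreated libraries. The mean share was 74.4% at 6 h and 86.8% at 12 h, so such sharing was not particular to untreated cells.

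Gene ends, here both the start and the 3′ end of a gene, stood lower relative to the library in induced cells than in untreated cells. CpG islands are common at the starts, and starts and 3′ ends were not separated. Within 1 kb of protein-coding gene ends the level was 1.11%, 0.867% and 1.02% in 0 h A, B and C (413 of 40415 calls). Relative to the library these are 1.24, 0.705 and 0.808, against 0.573 and 0.572 at 6 h and 0.484, 0.496 and 0.517 at 12 h, again without overlap (1.78-fold for 0 h over 12 h, exact permutation p = 0.1, 0.218 adjusted). Of reads with 2 or more undeaminated calls, 66 of 553 (11.9%) lay near gene ends, where 7.73% of all reads with 2 or more CpGs and 11.7% of all untreated calls lay. Set against reads, these were more frequent at gene ends than elsewhere, and set against all calls about as frequent. All calls include those alone on their read, which such reads cannot hold. A share among the calls of reads with 2 or more CpGs was not computed.

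Among 9 compartments, which may overlap, limma called 1 (11.1% of those tested), the unplaced contigs. These are pieces of the assembly outside the named chromosomes and the mitochondrial genome, many of them repetitive. Their level was 2.23%, 2.84% and 2.08% in 0 h A, B and C, above each library, with a deviation from the library of +1.27 ± 0.338 points (SE, limma adjusted p = 0.0404). It rests on 20 undeaminated of 855 calls on 12 reads. Of 26 contigs with calls, 6 had an undeaminated one, and JH584304.1 alone gave 10 of 644 calls (1.55%). Leaving out 0 h A, 0 h B, 0 h C, 6 h A, 6 h B or 12 h C each ended the call, at adjusted p of 0.111, 0.104, 0.0570, 0.101, 0.101 and 0.0691 by limma, as did 1 call per read (adjusted p = 0.318). Fitted without the induced libraries the adjusted p was 0.581.

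The other compartments were not called. Protein-coding gene bodies had 0.948%, 1.18% and 1.29%, intergenic DNA 0.823%, 1.33% and 1.19%, and lncRNA gene bodies 1.00%, 1.52% and 1.36% in 0 h A, B and C. The mitochondrial genome had 1 undeaminated of 332 calls (0.301%, exact interval 0.00763 to 1.67%), namely 1 of 133 in 0 h A, 0 of 63 in 0 h B and 0 of 136 in 0 h C. A difference from the nuclear background was not detectable at this depth. Its level averaged 0.573% at 6 h and 1.53% at 12 h.

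No single chromosome stood out from its libraries. By limma 0 of 22 chromosomes were called (0.0% of those tested; 1 at an unadjusted p of 0.05, and 0 by quasi-binomial test). The lowest mean of an autosome was on chromosome 16, with 0.591%, 1.01% and 1.03% in 0 h A, B and C and a deviation of -0.268 ± 0.0760 points (SE, limma adjusted p = 0.128). The X chromosome had 1.29%, 1.03% and 1.10%. The Y chromosome had 0 of 171 calls in 0 h A, 1 of 97 in 0 h B and 7 of 114 in 0 h C, so its mean of 2.39% ± 3.29 rests on 1 library. Its 8 undeaminated calls came from 6 reads.

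**Figure D4:**
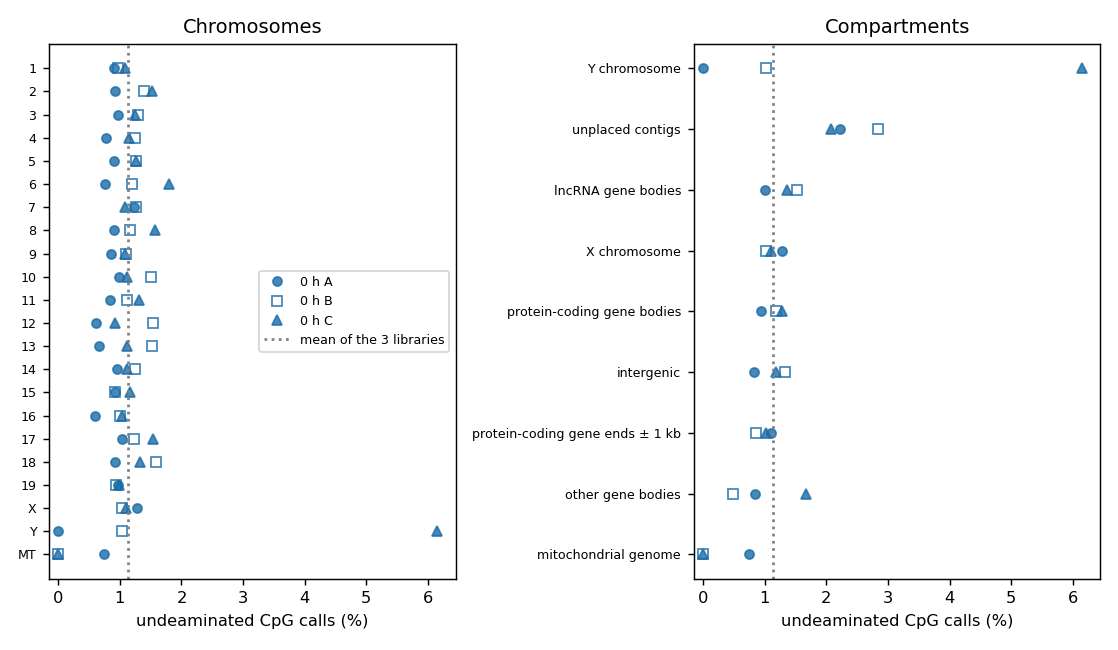
Undeaminated CpG calls (%) of the 3 untreated libraries by chromosome (left) and by compartment (right), with the mean library level of 1.13% dotted. Most points lie near the line, the unplaced contigs lie above it in all 3 libraries, and the Y chromosome reaches 6.14% in 0 h C alone.

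Windows of 10 kb with 200 or more calls over all 8 libraries number 18 and are called high-copy windows here for the many calls they hold. Inside them the untreated level was 1.86%, 2.36% and 1.57% in 0 h A, B and C, against 0.881%, 1.20% and 1.25% outside. In 0 h A the difference rests on 1 window, chr17:39840001-39850000, which is described next. Without that window, a split chosen after the data had been examined, the level inside was 0.884% (19 of 2149 calls) in 0 h A, 2.33% (41 of 1763) in 0 h B and 1.70% (31 of 1822) in 0 h C, so that it was higher inside in B and C and close to the outside level in A. Single windows weighed on B and C too. Of the 41 in 0 h B, 26 lay in chr2:98660001-98670000. Of the 31 in 0 h C, 9 lay in chr9:35300001-35310000, which held 122 calls of that library. The level without these windows was not computed, so a higher level is not shown for high-copy windows in general. At 12 h the level averaged 21.0% inside and 24.2% outside with that window, and it was 24.5%, 24.3% and 31.1% inside without it in 12 h A, B and C. By limma 0 of 18 windows were called (0.0% of those tested, and 2 at an unadjusted p of 0.05). The quasi-binomial test covered only the 12 windows with an undeaminated untreated call and called 0 (1 at an unadjusted p of 0.05). The limma fits used 6 libraries in 1 window and 7 in another where libraries had no calls.

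The window with most undeaminated calls was chr17:39840001-39850000, which holds the ribosomal RNA copy Rn18s-rs5 and the lncRNA AY036118. It had 36 of 812 calls in 0 h A (4.43%), 11 of 445 in 0 h B (2.47%) and 8 of 664 in 0 h C (1.20%). A was highest and C was near its library, with a deviation of +2.01 ± 0.633 points (SE, limma adjusted p = 0.302). All 55 calls came from 11 reads, and without 0 h C the deviation was +2.88 (adjusted p = 0.0154 by limma), while without 0 h A it was +0.47 (adjusted p = 0.391). The 6 windows with 1000 or more calls, tested alone, gave a limma adjusted p of 0.0359 here. The window averaged 1.16% at 6 h and 4.78% at 12 h, below the library levels of those groups. The window chr2:98660001-98670000, in which no gene is listed, had 8 of 1221, 26 of 1000 and 15 of 1042 calls in 0 h A, B and C (0.655%, 2.60% and 1.44%) on 24 reads. The window chr9:35300001-35310000, in the lncRNA gene Gm33838, had 3 of 136, 1 of 86 and 9 of 122 calls on 6 reads, highest in 0 h C. Its deviation of +2.48 ± 1.22 points (SE) was not called (limma adjusted p = 0.405), but with 1 call per read it was +3.39 (limma adjusted p = 0.0172).

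Few cytosines were called more than once. Of 337595 positions called in untreated cells, 98.8% had 1 call. At 24 positions 2 or more calls were undeaminated, and all 24 lay in high-copy windows. Outside them it was 0 of 3045 positions with 2 or more calls. The 24 positions had up to 181 calls each (4 of 181 undeaminated at chr2:98667196), and counts at equal depth were not compared. The contrast therefore cannot show that recurrence is confined to high-copy windows. Untreated reads outside these windows with 3 or more CpGs, 2 or more of them undeaminated, were looked for in the induced libraries. Of 360 such reads, 4 (1.11%) had an induced read with the same positions, and 0 of these had the same calls. Among reads with 1 undeaminated call, 16 of 879 (1.82%) had one, 3 of them with the same calls. Without an undeaminated call it was 1061 of 40381 (2.63%). With 4 matched reads, it cannot be said whether the calls recur.

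By windows of 1 Mb, limma called 0 of 1202 (0.0% of those tested, and 47 at an unadjusted p of 0.05). The quasi-binomial test covered only the 947 windows with an undeaminated untreated call and called 0 (18 at an unadjusted p of 0.05). The window with the lowest limma p, chr1:55000001-56000000, had 13 of 105 calls in 0 h A, 0 of 23 in 0 h B and 0 of 41 in 0 h C, all 13 on the Hspd1 read shown above (limma adjusted p = 0.419). Leaving out 0 h A, B or C gave 4, 4 and 7 called windows. In 255 windows no untreated call was undeaminated, where a Poisson count at the library levels would give 166. That count takes calls as independent, while undeaminated calls clustered on reads. The difference alone therefore does not show unevenness between regions.

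Single genes held few undeaminated calls. Of 22612 genes with untreated calls, 1700 (7.52%) had one. Among 96 gene bodies with 100 or more calls, 63 had one, with a median level of 0.772%. AY036118 was highest with 21 of 339 calls on 4 reads, 19 of them in 0 h A. Grid1, a glutamate receptor subunit gene, had 5 of 121 calls on 2 reads. Pde4d, a cyclic AMP phosphodiesterase gene, had 5 of 132 on 4 reads. Gm33838 had 13 of 344 on 6 reads, and the immunoglobulin kappa locus Igk had 6 of 159 on 3 reads. Rbfox1, a splicing factor gene, had 5 of 136 calls on 3 reads. Arhgap26 had 5 of 138 on 5 reads, and Kalrn had 4 of 112 on 1 read. Trappc9, a subunit of a vesicle tethering complex, had 4 of 116 and Slc39a11, a zinc transporter gene, 6 of 195. No gene was tested on its own.

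Very long genes of neuronal type had 32 of 2915 calls, with 14 of 26 genes carrying one, and 1.03%, 1.18% and 1.15% in 0 h A, B and C. Its members with most calls, the cadherin gene Cdh13 and the teneurin gene Tenm3, had 2 of 251 and 1 of 212. Imprinted genes had 5 of 464, in the potassium channel gene Kcnq1 (1 of 44) and Trappc9. Pluripotency genes had 1 of 205, in Nr5a2, a nuclear receptor gene (1 of 33), with 0 of 40 in Esrrb, another nuclear receptor gene. Early lineage genes had 1 of 137 (0 of 30 in the transcription factor gene Gata4, 0 of 21 in Elf5) and germline genes 3 of 172, with 1 of 30 in Piwil1, a piRNA pathway gene, and 0 of 26 in Mov10l1, an RNA helicase gene. Housekeeping genes had 0 of 64 calls, which allows a share of up to 4.69%, including 0 of 13 in Gapdh and 0 of 13 in Gusb. The genes of DNA methylation and its oxidation had 7 of 219 calls, among them 3 of 30 in Zbtb38, a methyl-CpG binding protein gene, all on 1 read. No list of genes was tested.

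The base before the CpG was read in 32851 RefSeq promoter windows, which held 8950 untreated calls and 105 undeaminated ones. This grouping was chosen after the data had been examined. Where G preceded the CpG the level was 2.74%, 0.990% and 2.81% in 0 h A, B and C, so A and C were high and B was not. Where C preceded it the level was 0.504%, 0.505% and 0.454%. After A it was 0.317%, 2.03% and 0.888%, and after T 0.475%, 0.350% and 0.295%. By limma 1 of 4 contexts was called (25.0% of those tested), the CpG after G, with a deviation of +1.07 ± 0.285 points (SE, adjusted p = 0.00483). Deviations of contexts are from the level of all 4 contexts together in the promoter windows of a library, not from its whole level. In 0 h B the CpG after G lay below the whole-library level of 1.23%. The 4 contexts make up their own baseline, so their deviations are not independent of each other. The call was lost without 0 h A (+0.72, adjusted p = 0.263), without 0 h C (+0.94, adjusted p = 0.0691), with 1 call per read (+0.48, adjusted p = 0.377), with the untreated libraries alone (adjusted p = 0.05002) and by quasi-binomial test (adjusted p = 0.0560). Of the 72 undeaminated calls after G, 46 lay on 17 reads with 2 or more, among them the Hspd1, Cux2 and Aff2 reads shown above with 6, 6 and 5, read on the strand that was called. At 12 h the context with the highest mean was that after A, at 12.7% ± 2.64, against 7.92% ± 2.45 after G (SD, n = 3). The level after G over that of the other contexts was 6.02, 1.17 and 5.47 in 0 h A, B and C, 1.65 and 1.11 at 6 h and 1.05, 1.02 and 1.35 at 12 h. These groups overlapped, and the exact permutation p was 0.2 for 0 h over 12 h and 0.4 for 0 h over 6 h.

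**Figure D5:**
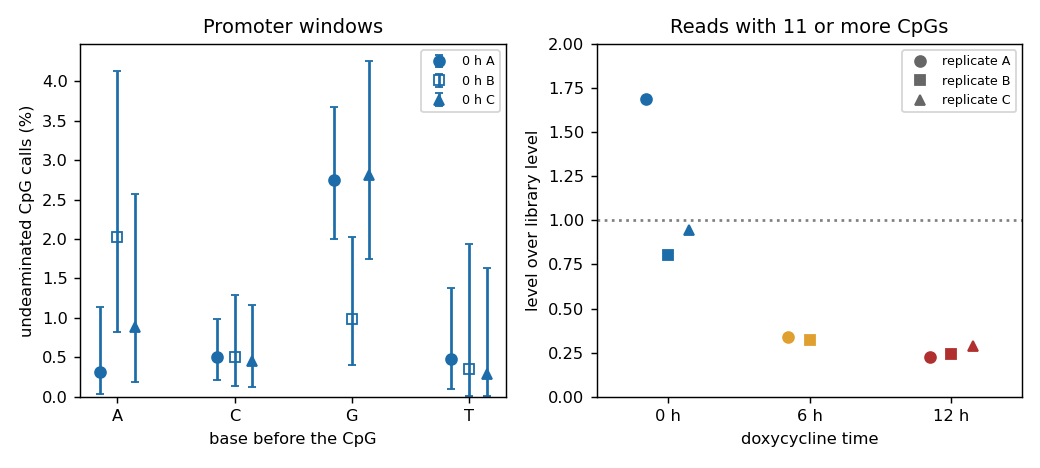
Left, undeaminated CpG calls (%) in promoter windows of the 3 untreated libraries by the base before the CpG, with exact 95% intervals; right, level of reads with 11 or more CpGs over the library level, 1 point per library. The CpG after G lies at 2.74% in 0 h A, at 2.81% in 0 h C and at 0.990% in 0 h B, and untreated libraries lie at 0.806 to 1.69 on the right, above the 0.224 to 0.340 of induced libraries.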

How the data were processed

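APOBEC-coupled sequencing of 10 ng DNA, fragmented to about 300 bp, was run in 3 sequencing runs with 150 bp chemistry, per the labels' protocols. The files hold Bismark 0.22.3 methylation extractor output, per the file headers. The unit the authors deposited is a call letter per CpG cytosine and read (undeaminated or deaminated), with read name, chromosome and position. Trim Galore, Bismark 0.22.3 and the genome build GRCm38 come from the submitters' processing notes. How reads were trimmed and aligned and whether duplicates were removed is not given in the sources used here.

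Libraries were grouped by title and held 75023 to 485941 calls, 87030 to 157700 in untreated cells, which limits single genes to a few undeaminated calls. The expected number of reads with 2 or more undeaminated calls, or with all of them so, assumes independent calls. Their rate is that of the library's reads in the same class of CpG number. The classes are 1, 2, 3, 4 to 5, 6 to 7, 8 to 10, and 11 or more. Regions were fitted with limma 3.58.1 in R 4.3.3. The level of a region minus that of its library was modelled by group (3 groups, 8 libraries) with binomial weights, and the untreated coefficient was tested against 0, with Benjamini-Hochberg adjustment within each family and a threshold of 0.05. For the base before the CpG, the level of the library's promoter-window calls with a readable context took the place of the library level. Differences between groups were tested by two-sided exact permutation (scipy 1.17.1), in which 3 against 3 cannot give less than 0.1 and 3 against 2 not less than 0.2. Windows of 1 Mb needed 20 calls in each library. Only the limma fit was run on simulated data, for chromosomes and windows of 1 Mb, with calls drawn independently. The real calls cluster on reads, which the simulation left out.

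Genes were matched by symbol to a RefSeq table of GRCm38.p6 without strand or exons, and a gene body is its full span. Named genes were the 10 gene bodies with the highest untreated level among those with 100 or more calls, and the 2 members with most untreated calls of each of 7 lists (159 symbols). The 4 promoters shown were chosen after their values were seen. The members and lists were chosen with earlier results of these data known. Alternatives were leaving out libraries, a replicate block, a logit scale, a quasi-binomial test, the untreated libraries alone, 1 call per read, and removal of repeated reads, fully undeaminated reads, high-copy windows, or mitochondrial and contig calls.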

Additional observations from a re-analysis of the deposited data

Results flagged for a closer look

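The difference between the last-listed and the first-listed call of a read went opposite ways in the 2 groups: last minus first was positive in 3 of 3 untreated libraries (+0.454, +0.404 and +0.308 points in 0 h A, B and C) and negative in 3 of 3 libraries at 12 h (-0.961, -0.876 and -1.19 points in 12 h A, B and C). The untreated mean minus the 12 h mean was 1.40 points. The difference in points was not tested; the ratio of last to first was, with an exact permutation p of 0.1, the smallest that 3 against 3 libraries allow.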

How the results depend on the processing

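The untreated level, the share of undeaminated calls on reads with 2 or more of them and the share of fully undeaminated reads were recomputed. Under the filters of reads and calls and other CpG minima they moved by less than 1 SD, with 1 exception. Counting reads of 2 or more CpGs gave 0.324% fully undeaminated reads, against 0.213%. Leaving out an untreated library gave levels of 1.06 to 1.24%, shares of 38.8 to 43.5% and fully undeaminated reads of 0.169 to 0.261%. Leaving out 1 of 3 libraries cannot move a mean by 1 SD, so that limit does not test these ranges.

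Counts of called regions were small and changed with single libraries. Leaving out 1 library gave 0 to 1 compartments, 0 to 1 windows of 10 kb, 0 to 7 windows of 1 Mb and 0 to 2 contexts, and 0 chromosomes and read classes throughout. Compartments came to 0 on the logit scale, with untreated libraries alone, by quasi-binomial test, with 1 call per read and without fully undeaminated reads. Contexts came to 3 on the logit scale, 2 by quasi-binomial test and without fully undeaminated reads, and 0 with untreated libraries alone and with 1 call per read. Windows of 10 kb came to 1 with 1 call per read (the chromosome 9 window in Gm33838) and to 1 with a minimum of 1000 calls (the chromosome 17 window), and read classes to 1 without fully undeaminated reads (3 CpGs, deviation -0.21). The causes were not tested.

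Same-letter correlations of 0 h and 12 h deviations over 1 Mb windows were 7.15e-05, 0.000462 and 0.0516 for A, B and C. Those of different letters lay between -0.0448 and 0.0411. At a median of 194.5 untreated calls per window and a level of 1.13%, such correlations cannot decide whether replicate letters pair the libraries. With the replicate block the counts were 12 windows of 1 Mb, 3 compartments, 1 window of 10 kb and 2 contexts.

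Some deviations from the library without a call changed sign, given here in points. For the base before the CpG, the deviation is from the promoter-window calls of the library. With 1 library left out, reads with 11 or more CpGs ranged between -0.147 (without 0 h A) and +0.412, gene ends between -0.298 and +0.0694 (positive without 0 h B and, at +0.0467, without 0 h C), the chromosome 2 window between -0.0813 (without 0 h B) and +0.770, the chromosome 1 window of 1 Mb between -1.25 (without 0 h A) and +9.72, and the CpG after A between -0.754 and +0.518 (positive without 0 h A). Without fully undeaminated reads, gene ends came to +0.0326 and the chromosome 2 window to -0.0682. With 1 call per read, reads with 11 or more CpGs came to -0.123 and the CpG after C to +0.0913.

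Depth limits single genes, the mitochondrial genome (332 calls) and single promoters, which rest on 1 read each. Calls of a read are not independent, so counts of calls overstate what was sampled.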
